A study of Mus musculus with 1920 samples.

Results

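The 31 genes described here make cholesterol and fatty acids or control that synthesis, and they were followed across single intestinal stem cells (ISCs) of young and aged mice. They were chosen by name, as enzymes and regulators of these pathways, from the 55471 genes of the deposited table. They comprise 18 enzymes of sterol synthesis, 8 enzymes of fatty acid synthesis and desaturation, and 5 sterol regulators and carriers. The study asked what distinguishes ISCs of aged mice from those of young mice, and it sorted single cells with high GFP from Lgr5, a stem cell marker of the crypt base, by flow cytometry from crypts of the small intestine. Transcripts of each cell were amplified and sequenced. The table holds 1920 cells, of which 1836 with at least 1000 detected genes were kept.

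All mice carried B6.129P2-Lgr5tm1(cre/ERT2)Cle/J, a knock-in allele that puts GFP and an inducible Cre recombinase under the Lgr5 locus, so the young and aged groups shared it and no mouse without it was compared. GFP marks only cells in which this locus is active, and crypts of such mice can express it in patches. The young group had 3 mice with 160, 370 and 376 kept cells, and the aged group had 4 mice with 189, 186, 189 and 366 kept cells. No treatment was labelled, and the sources used here do not give the ages of these mice. A kept cell had a median of 305492 reads and 9398.5 detected genes, and the reads of the kept cells of a mouse summed to between 49447464 and 134408884. Levels are given as CPM, the reads of a gene scaled to a common library size by TMM, over all kept cells of a mouse, and each main test took mice as replicates. In such sums, fewer expressing cells and less RNA per cell cannot be told apart. Marker levels, sums and means over lists of genes, and values of single cells were scaled by total reads only, without TMM.

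Cell titles carry 1 of 5 codes, each shared by 384 cells, the number that the methods give for a sequencing lane. The methods also name plates of 384 wells for sorting, so a code may mark a lane or a plate, which cannot be told apart. The sets of cells that share a code are called lanes A to E here. The mice were not spread evenly over them. Young mouse 1 and aged mouse 3 filled 1 lane (B), young mouse 2 was split over lane A with aged mouse 1 and lane C with aged mouse 2, and aged mouse 4 (lane D) and young mouse 3 (lane E) each had a lane alone. Each cell was assigned to the list of marker genes with the highest mean log2(CPM + 1), which put 1572 cells with the ISC list, 133 with Paneth markers, 75 with enterocyte markers and 41 with goblet markers. The sorted cells therefore carried the markers of their label for the most part, with Lgr5 itself between 172 and 454 CPM per mouse. Immune markers summed to between 0.950 and 4.59 CPM per mouse, against 13616 to 23533 CPM for the ISC markers.

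Cholesterol is built from acetyl-CoA through mevalonate, isoprenoid units, squalene and lanosterol. When sterols in the endoplasmic reticulum run low, Scap escorts the SREBP transcription factors, encoded by Srebf1 and Srebf2, to the Golgi, where they are cut and released to the nucleus, and Insig1 holds Scap back when sterols are plentiful. SREBPs bind promoters of lipid synthesis genes together with the factors NF-Y and Sp1. The intestinal epithelium both absorbs cholesterol and makes it, and dividing crypt cells need it for new membranes.

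Promoter sequences are shown first for 6 of the members that were higher in cells with high expression of cell cycle genes, and for Fasn, which was not called there. RefSeq windows from 250 bases before to 50 bases after the start (GRCm38.p6) were matched for 24 of the 31 members, and Fdps, Fdft1, Sqle, Stard4, Fads1, Scd1 and Scd2 had no entry. Each stretch of 100 bases lies before the RefSeq transcription start and is written 5′ to 3′ on the strand of the gene. In the GENCODE M21 annotation, whose gene bounds are given elsewhere here, the genes Idi1, Msmo1 and Cyp51 start further upstream, so that the stretches of Idi1 and Msmo1 lie within the annotated gene and that of Cyp51 partly so. Capitals mark the NF-Y box CCAAT on either strand (ATTGG where it lies on the other strand) and the sterol regulatory element. The 6 members had the highest fold changes among those with an NF-Y box before the start. Each stretch, that of Fasn included, was placed around such a box or the sterol regulatory element. A mark in every stretch therefore follows from this choice and is no result. Msmo1 on the minus strand is chr8:64733580-64733679, Hmgcs1 on the plus strand is chr13:119690168-119690267, Mvk on the plus strand is chr5:114444169-114444268, Idi1 on the plus strand is chr13:8885506-8885605, Insig1 on the plus strand is chr5:28071162-28071261, Cyp51 on the minus strand is chr5:4104698-4104797, and Fasn on the minus strand is chr11:120824553-120824652.
Msmo1: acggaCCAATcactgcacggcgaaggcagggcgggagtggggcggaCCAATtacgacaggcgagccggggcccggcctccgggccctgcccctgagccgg
Hmgcs1: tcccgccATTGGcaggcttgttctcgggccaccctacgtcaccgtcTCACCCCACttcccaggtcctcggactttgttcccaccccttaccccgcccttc
Mvk: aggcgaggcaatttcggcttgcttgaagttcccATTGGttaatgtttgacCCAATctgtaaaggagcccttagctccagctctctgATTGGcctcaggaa
Idi1: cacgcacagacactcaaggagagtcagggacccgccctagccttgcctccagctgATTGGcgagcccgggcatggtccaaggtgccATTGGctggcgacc
Insig1: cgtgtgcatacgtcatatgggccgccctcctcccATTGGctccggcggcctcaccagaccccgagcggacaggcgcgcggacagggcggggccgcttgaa
Cyp51: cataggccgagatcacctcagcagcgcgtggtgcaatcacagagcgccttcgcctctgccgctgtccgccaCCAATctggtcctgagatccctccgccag
Fasn: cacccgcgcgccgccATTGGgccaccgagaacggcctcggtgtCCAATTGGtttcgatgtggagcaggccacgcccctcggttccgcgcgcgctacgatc

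Some genes have more than 1 window, and a gene was counted when any of its windows held the motif on either strand. The NF-Y box was found in 19 of the 24 matched members and in 41.1% of all genes with a window. The Sp1 box GGGCGG was in 20 of the 24 members and in 38.2% of all genes. The sterol regulatory element TCACNCCAC was found only in Hmgcs1, as TCACCCCAC from 137 bases before the start, and 1.44% of genes held it. The E-box CACGTG was in 5 of 24 members (Dhcr7, Hsd17b7, Insig1, Sc5d and Scap) and in 8.09% of genes. Only exact matches to these letters within the windows were counted, so a variant of an element or one outside a window would be missed. These matches describe letters and were not measured binding.

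Expression of the members spanned a wide range. Per kilobase of annotated exon, Fads2, which desaturates polyunsaturated fatty acids, was highest, with a mean of 96.3 CPM per kilobase and a range of 83.8 to 120.0 over the 7 mice. Ebp (31.0), Fads1 (24.6), Stard4 (23.4) and Acly (18.8 CPM per kilobase) followed, and the ranges of Ebp, Fads1, Stard4 and Acly each overlapped that of the next in order. Scd1, the desaturase of monounsaturated fatty acid synthesis that dominates in liver and skin, was lowest at 0.0445 CPM per kilobase, and Scd2 stood at 5.95. Reads of Scd1 were found in 4.03% of kept cells and reads of Fads2 in 98.0%. Among the sterol enzymes this share ran from 46.4% for Mvk to 87.1% for Ebp. All 31 members passed the filter on low counts in the comparison of ages.

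**Figure D1:**
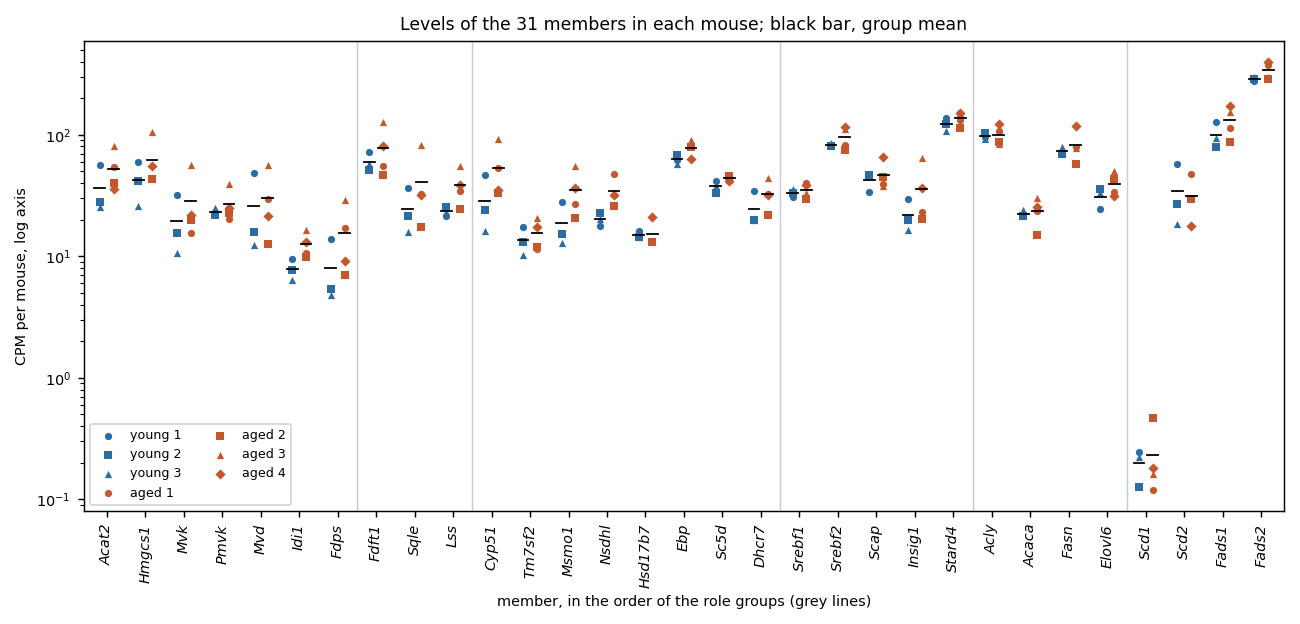
CPM of each member (log axis) in each of the 3 young (blue) and 4 aged (orange) mice, with the group mean as a black bar. Fads2 is highest and Scd1 lowest in every mouse, and aged mouse 3 (orange triangle) is the highest aged mouse for 15 of the 18 sterol enzymes.

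Between ages, the sterol enzymes were higher in the aged mice by their estimates, but no member passed the test. The log2 fold change of aged over young was above 0 for 30 of 31 members and for all 18 sterol enzymes, while 51.7% of the 20957 genes tested were above 0. Its median was 0.32 over the 31 members, 0.54 over the sterol enzymes and 0.20 over the 8 fatty acid enzymes, against 0.01 over all genes. For the fatty acid enzymes it was -0.0046 with cells weighted equally and 0.093 with lane as a block. With Benjamini-Hochberg adjustment, edgeR's quasi-likelihood test called 0 members and 0% of all genes, the lowest adjusted p of a member being 0.69. DESeq2 also called no member, with 0.128 as the lowest adjusted p, and called 0.848% of genes. At an unadjusted p under 0.05, edgeR had 4 members higher and none lower, all 4 being sterol enzymes (Idi1, Lss, Msmo1 and Nsdhl), where 2.7% of all genes were higher. The 18 values come from the same mice, in which these enzymes were high or low together, and are not independent.

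**Figure D2:**
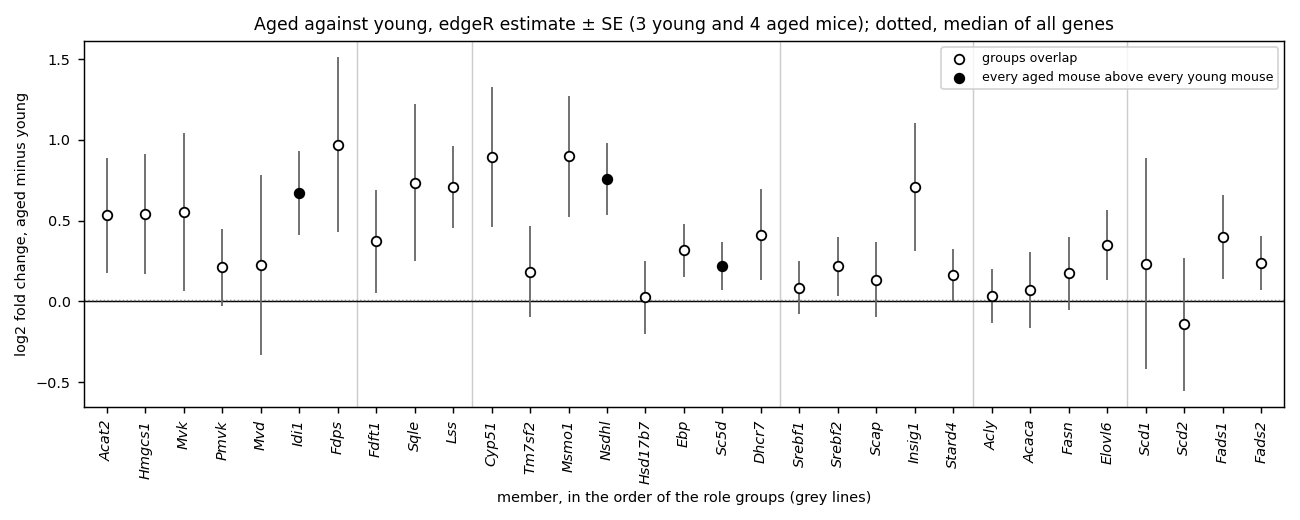
log2 fold change of aged over young for each member (edgeR, ± SE, 3 young and 4 aged mice), with filled points where all aged mice lay above all young mice. All points but Scd2 lie above 0, and the 3 filled points are Idi1, Nsdhl and Sc5d.

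Of the 31 members, 3 had every aged mouse above every young mouse, and no member had the opposite, where 2.51% of all genes were separated upward and 3.1% downward. Nsdhl, a dehydrogenase that removes methyl groups from sterol intermediates (X: 72918557 to 72958514, GRCm38), was at 17.8, 22.9 and 20.4 CPM in young mice 1 to 3 and at 47.3, 26.1, 32.8 and 31.7 CPM in aged mice 1 to 4. Aged mouse 1 was the highest, and the lowest aged mouse lay just above the highest young one. The means were 20.4 ± 2.56 CPM in young and 34.5 ± 9.05 CPM in aged mice (SD, n = 3 and 4), a log2 fold change of 0.76 ± 0.22 (SE) with an adjusted p of 0.69 in edgeR and 0.128 in DESeq2. Idi1, which isomerises the basic isoprenoid unit (chromosome 13: 8885501 to 8892451), was at 9.56, 7.72 and 6.35 CPM in the young and 10.7, 9.79, 16.5 and 13.1 CPM in the aged mice, a log2 fold change of 0.67 ± 0.26. Sc5d, a desaturase of the last steps to cholesterol (chromosome 9: 42251595 to 42264256), was at 41.7, 33.3 and 38.0 CPM in the young and 45.6, 45.6, 42.1 and 41.8 CPM in the aged mice, a log2 fold change of 0.22 ± 0.15. Young mouse 1 and aged mouse 4 differed by little for Sc5d. Within ISC-led cells alone, the log2 fold changes were 0.79 for Nsdhl, 0.74 for Idi1 and 0.11 for Sc5d.

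Among the mevalonate steps, the values of 1 mouse in each age stood out. Hmgcs1, which makes HMG-CoA, was at 59.5, 42.0 and 26.0 CPM in young mice 1 to 3 and at 43.1, 43.0, 106 and 55.6 CPM in aged mice 1 to 4. Acat2, the thiolase that joins the first acetyl-CoA units, was at 56.0, 27.8 and 25.4 CPM in the young and 53.9, 39.7, 81.2 and 35.6 CPM in the aged mice. Mvd, which removes a carboxyl group to form the isoprenoid unit, was at 48.8, 16.0 and 12.5 CPM in the young and 29.8, 12.7, 56.0 and 21.6 CPM in the aged mice. For all of them young mouse 1 was the highest young mouse and aged mouse 3 the highest aged one, and the ages overlapped. Fdps, which joins isoprenoid units to farnesyl diphosphate, had the largest estimate of the 31 members (0.97 ± 0.54), with a mean of 7.98 CPM in young and 15.6 CPM in aged mice. Mvk (0.55) and Pmvk (0.21), the kinases of mevalonate and phosphomevalonate, had smaller ones.

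Squalene is formed, oxidised and closed to lanosterol by 3 enzymes. Fdft1, squalene synthase, was at 71.4, 50.8 and 57.1 CPM in the young and 55.2, 46.9, 126 and 80.8 CPM in the aged mice. Sqle, squalene epoxidase, was at 36.5, 21.3 and 16.0 CPM in the young and 32.4, 17.3, 81.9 and 31.7 CPM in the aged mice. Lss, which closes the rings, was at 21.6, 25.3 and 23.3 CPM in the young and 34.7, 24.6, 55.2 and 38.4 CPM in the aged mice. Only aged mouse 2 kept Lss from separating the ages, and its log2 fold change was 0.71 ± 0.25 with an adjusted p of 0.82 in edgeR.

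Of the 8 enzymes from lanosterol to cholesterol, Cyp51, the lanosterol demethylase, was at 46.3, 23.9 and 16.1 CPM in the young and 53.1, 33.3, 91.8 and 35.2 CPM in the aged mice. Msmo1, which oxidises methyl groups of the sterol ring, was at 28.0, 15.4 and 12.9 CPM in the young and 27.1, 20.7, 55.5 and 36.5 CPM in the aged mice, and its log2 fold change of 0.90 ± 0.37 was the second largest of all members. Ebp, a sterol isomerase, was at 62.5, 68.6 and 57.6 CPM in the young and 80.3, 79.8, 89.8 and 63.0 CPM in the aged mice. For Ebp 1 aged mouse, mouse 4, lay below the highest young mouse. The log2 fold change of Ebp was 0.32, and those of Dhcr7, Tm7sf2 and Hsd17b7, reductases of the same steps, were 0.41, 0.18 and 0.025.

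The regulators had smaller differences between ages than the sterol enzymes, with a median log2 fold change of 0.16. Srebf2, the main SREBP of sterol synthesis, was at 82.6, 80.2 and 84.7 CPM in the young and 83.1, 74.9, 111 and 115 CPM in the aged mice, a log2 fold change of 0.22 ± 0.18. Stard4, which carries cholesterol between membranes, was at 137, 122 and 108 CPM in the young and 133, 115, 151 and 150.5 CPM in the aged mice. Scap was at 33.8, 46.5 and 47.3 CPM in the young and 39.0, 44.5, 37.6 and 65.8 CPM in the aged mice. The ages overlapped for each of them. Insig1, itself a known SREBP target, had the largest estimate of the regulators (0.71 ± 0.40) and Srebf1 the smallest (0.08 ± 0.17).

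No fatty acid enzyme passed the test between ages. Acly, which makes cytosolic acetyl-CoA from citrate, was at 96.6, 104 and 92.8 CPM in the young and 107, 87.1, 84.3 and 121 CPM in the aged mice. Fasn, fatty acid synthase, was at 72.4, 68.9 and 79.7 CPM in the young and 79.1, 57.7, 78.0 and 117 CPM in the aged mice. Elovl6, which lengthens palmitate, was at 24.4, 35.5 and 33.1 CPM in the young and 33.5, 43.0, 50.2 and 31.6 CPM in the aged mice, and Acaca, which makes malonyl-CoA, had a log2 fold change of 0.07. Fads2 was at 276, 288 and 299 CPM in the young and 374, 287, 301 and 395 CPM in the aged mice. Fads1 was at 127, 79.5 and 94.3 CPM in the young and 113, 87.0, 154 and 173 CPM in the aged mice. Scd2 was at 57.8, 26.8 and 18.6 CPM in the young and 47.6, 29.3, 29.9 and 17.6 CPM in the aged mice, and its log2 fold change of -0.14 was the only one below 0. The sign of this change depended on the settings, as it was 0.45 without young mouse 1. Scd1 lay between 0.120 and 0.464 CPM in all 7 mice.

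The mice that shared lane B were the highest of their age for most sterol enzymes. Young mouse 1 was the highest young mouse for 14 of 18 sterol enzymes and 19 of 31 members (37.5% of all genes), and aged mouse 3 was the highest aged mouse for 15 of 18 and 19 of 31 (28.9% of all genes). The mean log2(CPM + 1) of the 18 enzymes, relative to the mean of the 7 mice, was 0.14, -0.29 and -0.56 in young mice 1 to 3 and 0.12, -0.25, 0.77 and 0.06 in aged mice 1 to 4. On this scale aged mouse 3 was the highest and young mouse 3 the lowest, and the other mice overlapped. Within lanes, aged exceeded young by a median of 0.50 on the log2 scale in lane A (17 of 18 sterol enzymes higher), 0.82 in lane B (17 of 18) and 0.19 in lane C (12 of 18), each comparing 1 mouse with 1 mouse. The cells of young mouse 2 differed by a median of -0.03 between lanes C and A over the same enzymes. With lane as a block the median was 0.40, and without lane B it was 0.53. The fit with lane as a block took only lanes A, B and C, so aged mouse 4 and young mouse 3 were absent. Young mouse 2 entered it once for each of its lanes, as if separate replicates. Leaving out aged mouse 3 lowered the median to 0.24 and leaving out young mouse 3 to 0.31, and leaving out young mouse 1 raised it to 0.78, with no member called in any of these fits.

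**Figure D3:**
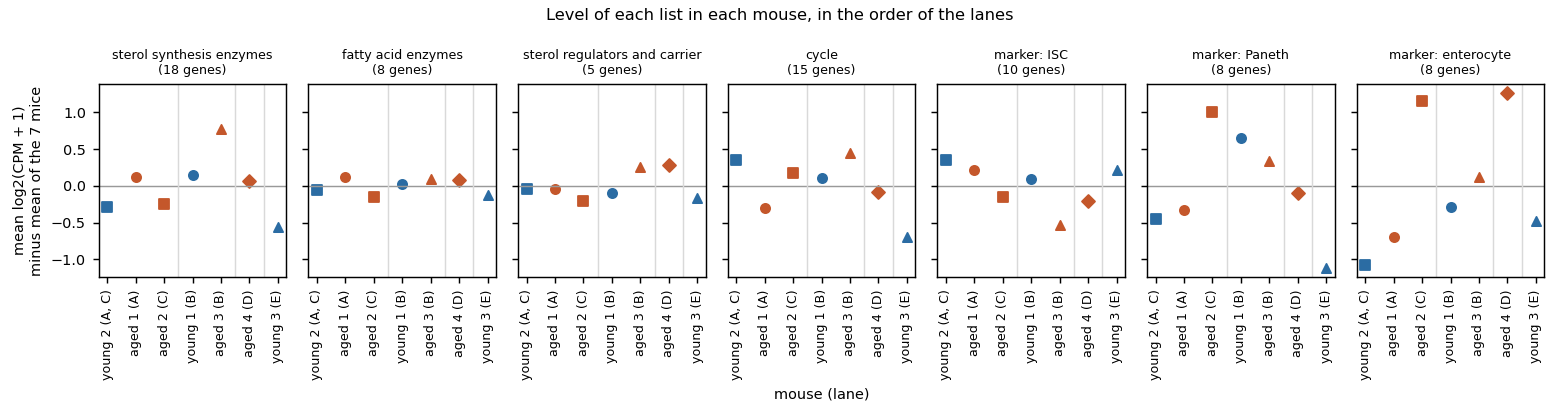
Mean log2(CPM + 1) of each gene list, relative to the mean of the 7 mice, with mice in the order of their lanes (letters in brackets). Sterol enzymes run from -0.56 in young mouse 3 to 0.77 in aged mouse 3, the same mice that are lowest and highest for the cycle list.

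Cell cycle genes had the same highest and lowest mouse as the sterol enzymes, but another order between them. The mean of 15 cycle genes on the same scale was 0.10, 0.36 and -0.70 in young mice 1 to 3 and -0.30, 0.17, 0.45 and -0.08 in aged mice 1 to 4. Young mouse 2 was second highest for the cycle genes and second lowest for the sterol enzymes. ISC-led cells made up 86.9, 94.1 and 92.8% of kept cells in young mice 1 to 3 and 89.9, 76.9, 78.8 and 74.9% in aged mice 1 to 4. ISC markers were lowest in aged mouse 3 (13616 CPM). The sum of the stromal list was highest there, at 7.17 CPM against 0.0345 to 1.10 CPM in the other mice. Most of that sum came from the endothelial genes Pecam1 and Cdh5. Each other gene of the stromal list, the collagen genes included, was higher in some other mouse than in aged mouse 3. Enteroendocrine markers summed to 5.68 to 118 CPM in the young and 88.8 to 390.0 CPM in the aged mice. Most of this was Chgb, at 4.51 to 68.7 CPM in the young and 77.9 to 288 CPM in the aged mice. Gcg was at 0.121, 4.40 and 25.3 CPM in young mice 1 to 3 and at most 0.243 CPM in the aged mice, so the ages overlapped. Paneth markers summed to 6882 to 23162 CPM in the young and 10472 to 25350 CPM in the aged mice, and enterocyte markers to 774 to 977 CPM and 731 to 2071 CPM. The part of the cycle genes and of these markers in the difference between ages was not tested. Among the cells with high cycle scores for their mouse, described next, the median log2 fold change of aged over young for the sterol enzymes was 0.34 (15 of 18 above 0), and among those with low scores it was 0.56 (17 of 18). The cuts were set within each mouse, so the ages were not matched in score. The upper part began at a score of 3.8 in young mouse 3 and 7.44 in aged mouse 3, whose lower part ended at 4.23.

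The members were then compared between ISC-led cells at the extremes of the cycle score, the mean log2(CPM + 1) of the 15 cycle genes. In each mouse the ISC-led cells were ranked by this score and cut into 3 equal parts, and the upper and lower parts were summed and compared with the mouse as a block. The score is continuous, with 530 of 1572 cells within 0.5 of a cut, so these parts are ranges and not cell types. The medians over mice were 302438 reads per cell in the upper and 315589 in the lower part, but 9892 and 8672.5 detected genes. The parts also differed in markers, as Lgr5 and the Paneth marker Lyz1 were each lower in the upper part in 7 of 7 mice. The share of these differences in the changes below was not tested.

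Most sterol enzymes were higher in cycle-high cells. In edgeR's quasi-likelihood test, 13 of 30 members tested were higher and 1 was lower at an adjusted p under 0.05, where 8.13% of all genes were higher and 5.91% lower. Of the sterol enzymes 10 of 18 were higher and none lower, with a median log2 fold change of 0.64 against -0.02 over all genes. They covered each stage of the pathway, namely Acat2, Hmgcs1, Mvk and Idi1 of the mevalonate steps, Fdft1 and Sqle around squalene, and Cyp51, Msmo1, Ebp and Dhcr7 after lanosterol. Of the regulators, Srebf2, Insig1 and Stard4 were higher. Of the fatty acid enzymes only Fads2 was called, and it was lower. With cells thinned to 100000 reads 17 members were higher and 1 lower, the added calls being Fdps (0.89), Nsdhl (0.64), Elovl6 (0.60) and Fads1 (0.27).

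Sqle had the largest change. It was at 5.98, 8.66 and 6.11 CPM in cycle-low and 76.5, 29.7 and 27.5 CPM in cycle-high cells of young mice 1 to 3. In aged mice 1 to 4 it was at 8.43, 1.81, 76.3 and 12.6 CPM in cycle-low and 66.8, 25.6, 86.1 and 45.1 CPM in cycle-high cells. Every mouse was higher in cycle-high cells, aged mouse 3 by the least, with the highest level of all mice in its cycle-low cells. The log2 fold change was 2.32 ± 0.40 (adjusted p 0.0033). Msmo1 rose from a median of 6.30 to 40.5 CPM (2.02 ± 0.29, adjusted p 0.00096), Hmgcs1 from 22.0 to 66.5 CPM (1.61 ± 0.23), Mvk from 10.8 to 25.2 CPM (1.50 ± 0.20) and Idi1 from 5.64 to 13.4 CPM (1.38 ± 0.25), each in 7 of 7 mice. Insig1, which slows the pathway, rose by 1.03 ± 0.16 (adjusted p 0.0014).

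Fads2 was the only member called lower in cycle-high cells. It was at 290, 349 and 345 CPM in cycle-low and 237, 245 and 249 CPM in cycle-high cells of the young mice. In the aged mice it was at 454, 407, 368 and 536 CPM in cycle-low and 326, 281, 302 and 392 CPM in cycle-high cells. All 7 mice were lower, and the log2 fold change was -0.44 ± 0.06 (adjusted p 0.001). Fads1, which acts in the same fatty acid pathway, had a log2 fold change of 0.07 ± 0.13, and Fasn 0.08 ± 0.12, neither of which passed the test without thinning. Of the 14 calls, 10 held in each of the 11 alternative fits, and 4 did not. Acat2 was lost without aged mouse 4, young mouse 2 or young mouse 3. Fdft1 was lost without any mouse but aged mouse 2, Ebp without any but aged mice 1 and 2, and Srebf2 without any but aged mouse 3. Srebf2 was also lost with no filter on low counts.

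**Figure D4:**
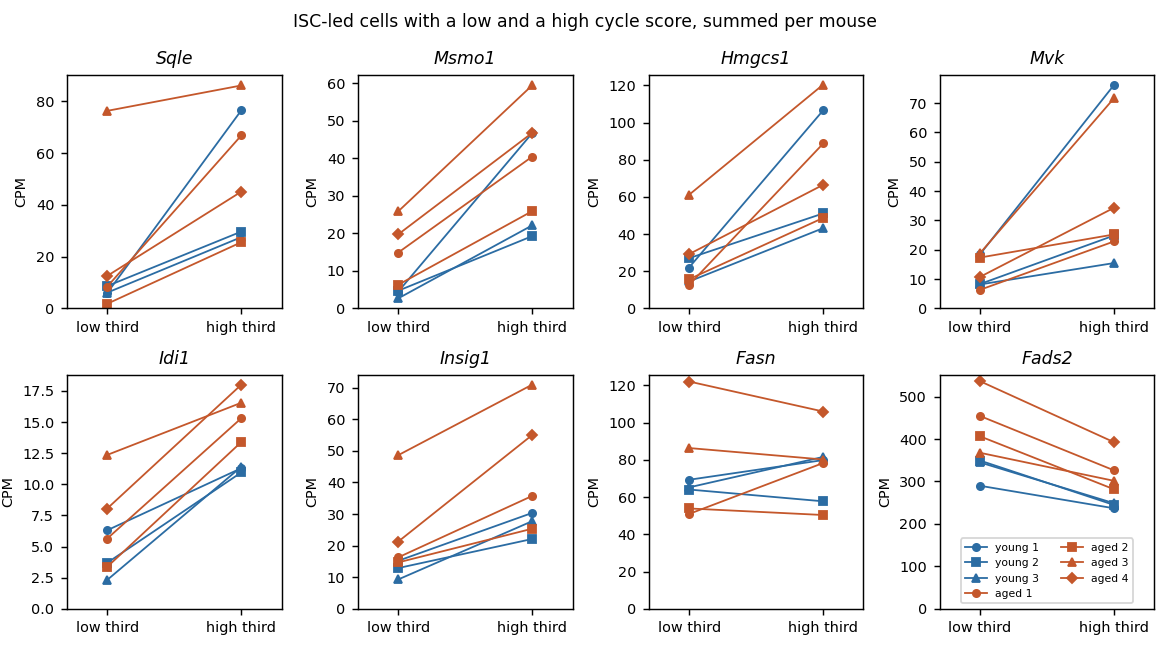
CPM of 8 members in the lower and upper of 3 equal parts of the ISC-led cells by cycle score, 1 line per mouse (young blue, aged orange). Lines rise in every mouse for Sqle, Msmo1, Hmgcs1, Mvk, Idi1 and Insig1, fall in every mouse for Fads2, and go both ways for Fasn.

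The change with the cycle score was not shown to depend on age. The test of the difference between aged and young mice in this change, added after the data were seen, called 0 members and 0 of 19249 genes in edgeR. At an unadjusted p under 0.05 it had 1 member, Msmo1, whose change in aged minus that in young mice was -1.35 on the log2 scale (unadjusted p 0.00732, adjusted p 0.999, edgeR), and 3.61% of all genes.

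Some genes of sterol export and storage went the other way in the same cells. Of 14 genes for sterol efflux, storage and the LXR receptors, none was called higher and 5 were called lower in cycle-high cells. These were the cholesterol exporters Abca1 (log2 fold change -2.32), Abcg1 (-2.45), Abcg5 (-1.24) and Abcg8 (-0.84), and Soat1 (-0.67), which esterifies cholesterol for storage. Over all genes 8.13% were higher and 5.91% lower. The genes not called went both ways, with Npc1l1 higher in 6 of 7 mice, Scarb1 in 5 of 7, and Mylip lower in 7 of 7. Soat1 fell from a median of 697 CPM in cycle-low to 417 CPM in cycle-high cells, in 7 of 7 mice. Among further genes of SREBP processing and sterol steps, Tmem97 (0.57) was higher and Ggps1 (-0.72), which makes geranylgeranyl diphosphate, was lower. Of 14 genes of fatty acid supply and elongation tested, Hsd17b12 (0.39) was higher.

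Between ages, none of the 37 genes of these lists that were tested passed, in edgeR or DESeq2. Of the 37, Soat1 and Abcg8 had every aged mouse below every young mouse, as did 3.1% of all genes. Soat1 was at 517, 548 and 700.1 CPM in the young and 464, 425, 360.2 and 496 CPM in the aged mice (log2 fold change -0.43, unadjusted p 0.0352, adjusted p 0.90, edgeR). Abcg8 was at 39.5, 40.2 and 41.7 CPM in the young and 30.3, 38.8, 27.9 and 31.5 CPM in the aged mice. The medians of the log2 fold change were 0.17 for SREBP processing and sterol steps, -0.07 for efflux, storage and LXR, and -0.08 for fatty acid supply and elongation.

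The members also differed between classes of cells led by different markers. These classes are ranges of a score, with 20 of 1572 ISC-led, 11 of 133 Paneth-led, 8 of 75 enterocyte-led and 11 of 41 goblet-led cells within 0.5 of their next list. Other markers were still present, the median ISC score being 6.54 in Paneth-led, 6.03 in enterocyte-led and 6.72 in goblet-led cells against 8.63 in ISC-led cells. Median reads per cell were 319357, 227960, 179410 and 304811 in ISC-, Paneth-, enterocyte- and goblet-led cells. All of these comparisons share the ISC-led cells, so that they are not independent. Under TMM scaling the median of all genes was -0.16 in Paneth-led, -0.30 in enterocyte-led and -0.24 in goblet-led against ISC-led cells, and the fold changes are to be read relative to it.

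Enterocyte-led cells, compared in 5 mice with at least 5 such cells, had higher levels of the sterol enzymes Sc5d, Msmo1 and Hmgcs1 and lower levels of the desaturases Fads1 and Fads2. Of 31 members 6 were higher and 4 lower, where 10.6% of all genes were higher and 13.8% lower. The median log2 fold change was 0.24 over the sterol enzymes and -0.56 over the fatty acid enzymes. Among the members called by edgeR, Sc5d had the highest fold change, from 33.5 to 36.9 CPM in ISC-led cells to 80.6 to 159.6 CPM in enterocyte-led cells, with no overlap between the classes (1.79 ± 0.21, adjusted p 6.8e-06, edgeR). Msmo1 (1.71), Elovl6 (1.47), Hmgcs1 (1.19), Stard4 (1.09) and Insig1 (0.59) were also higher, each in 5 of 5 mice. Scd1 had a log2 fold change of 2.61 with an adjusted p of 0.071 in edgeR and 0.016 in DESeq2. Fads1 had the lowest fold change called, from a median of 117 CPM to 54.6 CPM (-1.39 ± 0.19, adjusted p 4.6e-05), and Acly (-1.11), Fads2 (-0.98) and Acat2 (-0.83) were lower. Elovl6 and Acly, both of fatty acid synthesis, thus went opposite ways. Of the 10 calls, 8 held in all 9 alternative fits. Acat2 was lost without aged mouse 2, aged mouse 4 or young mouse 1, and Insig1 without any 1 of the 5 mice. Acat2 was also lost after thinning, and Insig1 with no filter on low counts. Under RLE scaling 8 members were higher and 4 lower, and 2338 genes were higher and 1973 lower in place of 2073 and 2718.

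Uptake and export genes were called in the same cells. Of the 14 genes for sterol efflux, storage and LXR, 7 were higher and 2 lower, where 10.6% of all genes were higher and 13.8% lower. Npc1l1, the cholesterol importer of the brush border, rose from a median of 9.56 to 386 CPM (5.56 ± 0.28), and Soat2, which esterifies absorbed cholesterol, from 14.1 to 187 CPM (3.44 ± 0.21). Abcg5 (1.91) and Abcg8 (1.82), which return sterols to the gut lumen, were higher, and Soat1 (-1.39) and Abcg1 (-4.50) were lower. The lysosomal transporter Npc1 (0.72), the phospholipid enzyme Lpcat3 (1.39) and the LXR receptor Nr1h3 (1.04) were also higher. Among genes of SREBP processing and sterol steps, Pcyt2 (1.33) was higher and Tmem97 (-0.57) lower. Of fatty acid supply and elongation, Me1 (3.52), which yields NADPH, and Elovl7 (0.65) were higher, and Gpam (-0.997), Acsl3 (-0.84), Acss2 (-0.60) and Tecr (-0.51) were lower. Under RLE scaling Gpam, Acss2, Tecr and Tmem97 were not called, after thinning Gpam, Acss2, Tecr and Npc1 were not, and in DESeq2 Acss2 and Tecr were not.

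Paneth-led cells were compared with ISC-led cells in all 7 mice, and 2 of 30 members tested were higher and 5 lower, where 6.73% of genes were higher and 7.34% lower. Under RLE scaling 3 members were higher and 3 lower, and the calls over all genes turned from 1362 higher and 1486 lower to 1642 higher and 789 lower. DESeq2 called Msmo1, Hmgcs1, Insig1, Sc5d and Cyp51 higher and Acat2, Fads2, Mvd and Mvk lower, with 2275 genes higher and 1328 lower, so the balance of directions depended on the method. Msmo1 was higher in 7 of 7 mice, at a median of 30.3 CPM against 18.9 CPM (0.89 ± 0.18, adjusted p 0.0028), and Hmgcs1 in 6 of 7 (0.71 ± 0.20). Mvd had the lowest fold change, at a median of 8.97 CPM against 16.4 CPM (-1.55 ± 0.43, adjusted p 0.024), and no read of it was counted in the Paneth-led cells of young mouse 3 and aged mouse 1. Acat2 (-0.97), Mvk (-0.84), Fads2 (-0.80) and Fads1 (-0.61) were also lower. The mevalonate steps therefore held calls in both directions. Only the calls of Msmo1, Acat2 and Fads2 held in each of 11 alternative fits. Mvd was lost without aged mouse 3 or young mouse 1, Hmgcs1 without aged mouse 2, aged mouse 4 or young mouse 1, Mvk without any but aged mouse 1 and young mouse 3, and Fads1 without any aged mouse or young mouse 2. Fads1 was also lost in DESeq2 and under RLE scaling, Mvk under RLE scaling and after thinning, Mvd after thinning, and Hmgcs1 with no filter on low counts. Without young mouse 1 or without aged mouse 4 the count of calls was 4. Of the 37 genes of the other lists, Npc1l1 (1.75) and Mid1ip1 (0.63) were higher in Paneth-led cells, and Acss2 (-0.80), Tecr (-0.72), Nr1h2 (-0.70), Rdh11 (-0.67), Acsl3 (-0.67), Tmem97 (-0.61) and Soat1 (-0.57) were lower. Under RLE scaling Rdh11, Nr1h2 and Soat1 were not called, and after thinning Rdh11, Acsl3 and Mid1ip1 were not.

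Goblet-led cells, in 4 mice, had 1 member called, Msmo1, where 1.54% of all genes were higher and 0.308% lower. Msmo1 stood at 40.4 to 91.2 CPM in goblet-led and 10.7 to 49.9 CPM in ISC-led cells (1.49 ± 0.34, adjusted p 0.048, edgeR), and was higher in 4 of 4 mice. The median log2 fold change of the sterol enzymes was 0.74. The call was lost without aged mouse 2 (0 members), without aged mouse 4 (0) and without young mouse 3, while leaving out aged mouse 3 gave 3 calls. DESeq2 called 9 members here, 8 higher and 1 lower. Of the other lists, Mid1ip1 (1.52) and Aacs (1.30) were higher and Soat1 (-1.04) lower in edgeR.

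**Figure D5:**
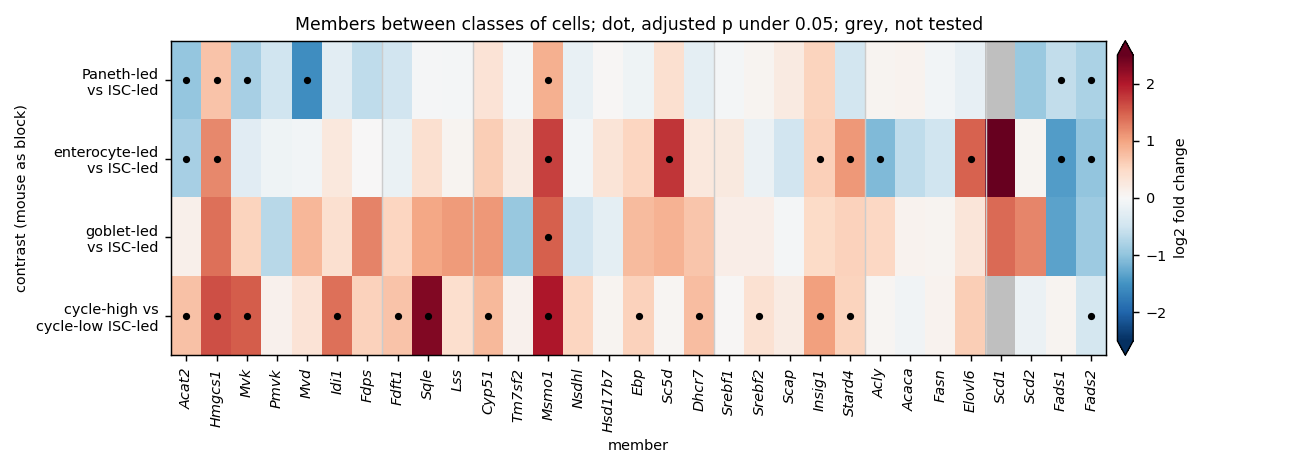
log2 fold change of each member (colour) in 4 contrasts between classes of cells within mice, with a dot where the adjusted p was under 0.05 and grey where the gene was not tested. Msmo1 is dotted red in all 4 rows, Fads2 is blue in all 4 and dotted in 3, and the cycle contrast in the lowest row has 14 dots.

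Set side by side, Msmo1 was higher in all 4 contrasts (2.02 with the cycle score, 1.71 in enterocyte-led, 1.49 in goblet-led and 0.89 in Paneth-led cells), and Hmgcs1 was higher in 3 of them and at 1.37 in goblet-led cells, where its adjusted p was 0.069 (edgeR). Fads2 was lower in 3 and at -0.91 in goblet-led cells with an adjusted p of 0.15 (edgeR). Scap, Srebf1, Fasn, Acaca, Lss, Nsdhl, Pmvk, Tm7sf2, Hsd17b7, Fdps, Scd1 and Scd2 were called in none of the 4 contrasts by edgeR. Exons of 11 members share bases with another annotated gene, at least 10% of their exonic bases for Hmgcs1, Fdps, Fdft1, Tm7sf2 and Scap, and the sources used here do not say whether counting used the strand.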

How the data were processed

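Single cells were measured in 3 young and 4 aged mice. Per the labels, libraries were made from sorted cells with a SMARTER kit, and the submitters' processing notes name HISAT2, HTSeq and build GRCm38, without saying whether strand was used. The values are raw read counts per gene and cell deposited by the authors, with no molecular identifiers, so amplified reads are not independent molecules.

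Cells with fewer than 1000 detected genes (84 of 1920) were left out, and no doublet caller was run. Symbols came from the GENCODE M21 annotation for 55144 of 55471 genes, and the other 327 held 0.0307% of counts. Counts of all kept cells of a mouse were summed and tested with edgeR 4.0.16 (quasi-likelihood, TMM, filterByExpr, Benjamini-Hochberg adjustment, threshold 0.05) in R 4.3.3. Classes of cells were compared within mice that had at least 5 cells of a class, with the mouse as a block. DESeq2 1.42.0, limma 3.58.1 voom, other scalings and filters, cells thinned to 100000 reads, lane and replicate blocks, and leaving out each mouse were alternatives. The lane block used only the lanes that held both ages, without aged mouse 4 and young mouse 3, and with young mouse 2 in each of its lanes. The fits without lane B, within parts of the cycle score, and of the cycle change by age were added after the data were seen. The scripts were tested on simulated data.

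Members and gene lists were chosen with earlier results of these data known. Values per mouse are given for the 3 members of each role group with the highest mean CPM, for those called or separated between ages, and for the highest and lowest fold change called in each class contrast; of the other lists, genes called or separated are named, apart from 1 that is not reported here. Msmo1, Mvk, Fdps and Insig1 were singled out elsewhere after their values were seen.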

Additional observations from a re-analysis of the deposited data

Results flagged for a closer look

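Among the 4 aged mice, 2 members had 1 mouse far from the others by Dixon's test at its 95% critical value, which chance alone gives in about 1 in 20 groups, and 31 members were examined. Mvk was at 56.13 CPM in aged mouse 3, against 15.6 to 21.9 CPM in the other aged mice, with a Dixon ratio of 0.845. Hsd17b7 was at 21.23 CPM in aged mouse 4, against 13.0 to 13.5 CPM in the others, with a ratio of 0.942. The 3 young mice were too few for this test.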

How the results depend on the processing

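No member passed the test between ages under any alternative run, and 18 of 31 members kept the sign of their difference in all of them. The median log2 fold change of aged over young without 1 mouse ran from 0.22 to 0.45 for all members, 0.24 to 0.78 for sterol enzymes and 0.10 to 0.27 for fatty acid enzymes. For fatty acid enzymes it was -0.0046 with cells weighted equally, 0.093 with lane as a block and 0.45 in cycle-low cells. Over all genes, the count called was 0, against 177 in DESeq2, 2 with voom, 22 with no filter, 15 after thinning, 18 with cells weighted equally, 1 with lane as a block, 1 without lane B, 4 in cycle-high cells, and 0 to 8 without 1 mouse. In Paneth-led cells the count of members called was 4 to 7 without 1 mouse, in enterocyte-led cells 8 to 10, in goblet-led cells 0 to 3 and with the cycle score 10 to 14. In goblet-led cells it was 9 in DESeq2, 3 with no filter and 6 after thinning. The median correlation of sterol enzymes across cells was 0.168 after thinning. The cause of these shifts was not tested.

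Replicate numbers did not pair the mice: the correlations of same-numbered mice were -0.11, 0.19 and -0.23. The value of 0.19 belongs to young mouse 2 and aged mouse 2, which shared lane C. The other pairs that shared a lane had 0.30 (young mouse 1 and aged mouse 3) and 0.14 (young mouse 2 and aged mouse 1). Pairs without a shared lane ran from -0.23 to 0.29, the highest being young mouse 3 and aged mouse 4. The main test had no term for lane. With the number as a replicate block, 2 genes and no member were called, and the log2 fold changes reversed for Hsd17b7 (-0.17), Scap (-0.063), Acly (-0.080), Acaca (-0.021), Fasn (-0.052) and Scd2 (0.18).

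None of the other reversed differences between ages was called either. With lane as a block these were Tm7sf2 (-0.0050), Hsd17b7 (-0.18), Scap (-0.064), Acly (-0.14) and Scd2 (0.0024). In cycle-high cells they were Mvk (-0.0026), Mvd (-0.72), Fdft1 (-0.031) and Acaca (-0.087), and in cycle-low cells Hsd17b7 (-0.56), Srebf1 (-0.23) and Scd2 (0.15). With cells weighted equally they were Srebf1 (-0.095), Acly (-0.076), Acaca (-0.091) and Fasn (-0.010). In ISC-led cells they were Hsd17b7 (-0.015) and Scd1 (-0.40), after thinning Acaca (-0.0034) and Scd2 (0.11), and without lane B Pmvk (-0.052), Acaca (-0.10) and Scd2 (0.46). Without 1 mouse, the ranges that crossed 0 were -0.068 to 0.24 for Acaca, -0.073 to 0.12 for Acly, -0.043 to 0.31 for Fasn, -0.18 to 0.096 for Hsd17b7, -0.25 to 1.08 for Mvd, -0.0029 to 1.10 for Mvk, -0.032 to 0.32 for Pmvk, -0.078 to 0.23 for Scap, -0.33 to 0.44 for Scd1 and -0.44 to 0.45 for Scd2.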

Other observations

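Across the kept cells of a mouse, the sterol enzymes were weakly correlated on the log2(CPM + 1) scale. The median Pearson r over their pairs was 0.217 (median of 7 mice, range 0.160 to 0.283), that of the fatty acid enzymes 0.189, that between both groups 0.166, and that of pairs among all genes with a mean of at least 10 CPM 0.146. These are descriptions across cells that share a library and differ in depth. The pairs with the highest mean r were Hmgcs1 and Msmo1 (0.45, range 0.40 to 0.54), Sqle and Msmo1 (0.43) and Hmgcs1 and Sqle (0.42). The mean level of the sterol enzymes had a median r of 0.54 with the cycle score, 0.48 with Srebf2, 0.44 with Insig1 and 0.18 with the reads of the cell. After thinning to 100000 reads these were 0.52, 0.36, 0.44 and -0.11.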
